A study of Caenorhabditis elegans with 2 samples.

Results

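The mitochondrial ribosomal protein genes of Caenorhabditis elegans were examined as possible targets of PAX-3, a paired box transcription factor, in starved first-stage (L1) larvae. Members were the protein-coding genes in Ensembl release 115 (assembly WBcel235, also called ce11) whose name starts with mrpl-, for the large subunit, or mrps-, for the small subunit. There were 70 of them, 41 large and 29 small, among 19973 protein-coding genes on the 6 nuclear chromosomes. The rule itself reads gene names and no binding value, though the family was picked with earlier results of these data known. PAX-3 binding was mapped by chromatin immunoprecipitation followed by sequencing (ChIP-seq), in 1 group of 2 biological replicates with no second condition. The strain was OP190, with the genotype unc-119(ed3) III and the transgene wgIs190, which makes PAX-3 with a GFP-FLAG tag at its C terminus. Both replicates came from whole larvae of pooled sexes aged 6 h, starved after bleaching, and were precipitated with an antibody against GFP. Binding in a few cells therefore cannot be told apart from weak binding in many. Without a control strain or a second factor, binding is set against other genes rather than against larvae lacking the tag.

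Mitochondria have their own ribosome, which translates the few proteins encoded in mitochondrial DNA, all of them parts of the respiratory chain and ATP synthase. Its protein parts are encoded in the nucleus, made on cytosolic ribosomes and imported. Some descend from the proteins of the bacterial ribosome, while others are found only in mitochondria. In C. elegans, knockdown of mrps-5 and other members during larval development is known to lengthen life. Many genes of this nematode lie in operons, in which a row of closely spaced genes on 1 strand is transcribed from a promoter before the first.

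Of the 70 members, 10 had a summit, the highest point of a peak, in their promoter window on the authors' stricter list, which rests on the irreproducible discovery rate (IDR) between replicates. Promoter windows covered the 1000 bp before and the 200 bp after each annotated start. The bases around 8 of these summits are shown first, because IDR summits are the strongest binding found at members. Each stretch is 201 bp long, centred on the summit and written along the member's strand, from the RefSeq copy of ce11. Capitals mark matches on either strand to 1 of 7 short motifs.
mrps-35: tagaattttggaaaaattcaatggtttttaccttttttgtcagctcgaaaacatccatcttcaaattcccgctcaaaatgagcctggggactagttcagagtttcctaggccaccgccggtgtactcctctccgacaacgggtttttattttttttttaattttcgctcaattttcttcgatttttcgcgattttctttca
mrpl-28: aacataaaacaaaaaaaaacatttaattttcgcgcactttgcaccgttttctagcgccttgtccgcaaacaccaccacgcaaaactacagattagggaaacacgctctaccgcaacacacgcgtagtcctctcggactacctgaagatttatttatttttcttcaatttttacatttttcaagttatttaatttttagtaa
mrpl-55: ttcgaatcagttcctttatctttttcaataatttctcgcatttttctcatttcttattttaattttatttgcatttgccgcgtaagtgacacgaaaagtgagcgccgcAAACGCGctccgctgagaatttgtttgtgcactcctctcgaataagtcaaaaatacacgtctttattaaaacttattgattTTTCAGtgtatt
mrps-7: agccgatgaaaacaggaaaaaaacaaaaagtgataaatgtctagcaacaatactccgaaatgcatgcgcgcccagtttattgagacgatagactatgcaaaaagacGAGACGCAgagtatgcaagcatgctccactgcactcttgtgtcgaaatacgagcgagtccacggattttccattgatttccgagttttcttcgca
mrpl-49: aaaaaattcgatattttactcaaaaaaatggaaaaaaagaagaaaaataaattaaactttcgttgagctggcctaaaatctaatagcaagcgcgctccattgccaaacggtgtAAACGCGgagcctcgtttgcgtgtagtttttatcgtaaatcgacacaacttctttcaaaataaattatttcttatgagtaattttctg
mrpl-18: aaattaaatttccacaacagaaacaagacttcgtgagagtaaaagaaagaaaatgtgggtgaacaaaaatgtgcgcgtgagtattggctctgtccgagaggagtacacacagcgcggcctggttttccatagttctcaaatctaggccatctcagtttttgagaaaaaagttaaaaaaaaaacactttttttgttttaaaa
mrpl-12: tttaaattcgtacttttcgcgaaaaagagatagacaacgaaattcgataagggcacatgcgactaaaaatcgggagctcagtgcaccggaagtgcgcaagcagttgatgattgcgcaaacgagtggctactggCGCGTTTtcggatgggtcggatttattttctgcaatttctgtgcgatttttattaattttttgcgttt
mrpl-40: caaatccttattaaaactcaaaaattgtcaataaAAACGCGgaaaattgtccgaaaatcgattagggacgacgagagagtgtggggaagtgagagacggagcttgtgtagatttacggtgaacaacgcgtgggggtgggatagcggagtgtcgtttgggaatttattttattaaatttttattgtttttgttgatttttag
In the order printed, mrps-35 was read from chrV:18981083-18981283 (plus strand) and mrpl-28 from chrII:156007-156207 (minus strand). The mrpl-55 window was chrIV:443759-443959 (plus strand) and that of mrps-7 was chrIV:14767801-14768001 (minus strand). The mrpl-49 window was chrV:12728358-12728558 (plus strand) and that of mrpl-18 was chrIII:8144667-8144867 (plus strand). The mrpl-12 window was chrIII:10707128-10707328 (plus strand) and that of mrpl-40 was chrIII:87274-87474 (plus strand).

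All 7 motifs were looked for on either strand of such windows, and a match is only a match of letters. The word AAACGCG was chosen after these sequences were seen, because it was frequent in member windows. Its count at members follows from that choice and is no sign of enrichment. AAACGCG stood in 5 of the 10 member windows (mrpl-55, mrpl-49, mrpl-15, mrpl-12 and mrpl-40). It stood in 12.3% of the 1072 IDR windows at promoters, 7.62% of all 2139 IDR windows and 2.24% of all 30000 pooled windows. TGCGTCTC, chosen after the sequences were seen because it was frequent in all IDR windows, stood in the mrps-7 window and in 9.33% of IDR promoter windows. TTTCAG, a splice acceptor consensus, stood in the mrpl-55 window and in 22.9% of IDR promoter windows. GTCACG, the core of a paired domain site, stood in 0 of the 10 member windows, against 8.02% of IDR promoter windows. At members whose summit was on the pooled list alone, GTCACG stood in 6 of 30 windows (20%), against 4.70% of all pooled windows. All pooled windows include IDR peaks and sites outside promoters, and no share over pooled-only promoter windows was counted. The 6 windows belong to mrps-27, mrpl-19, mrpl-48, mrpl-46, mrpl-34 and a summit that mrpl-1 and mrps-24 share. All 6 were weak, with ranks from 12355 (mrps-27) to 29431 (mrpl-34) of the 30000 pooled peaks. Only the summits of mrps-27 and mrpl-19 had a peak summit within 100 bp in both replicates. These matches are therefore no call of binding. The summits of mrps-27, mrpl-19 and mrpl-48 lay in exons and the others between genes. In the same 30 windows AAACGCG stood in 0, against 2.24% of all pooled windows, and TTTCAG in 12 (40%), against 30.9%. TGCGTCTC and GGGCGG stood in 1 each (3.33%), against 2.52% and 5.02%, and the homeodomain palindrome and CACGTG in 0, against 0.87% and 5.47%. The palindrome of paired-class homeodomains (TAAT, any 3 bases, ATTA), the E-box CACGTG and the GC box GGGCGG stood in none of the 10, against 1.12%, 6.34% and 10.1% of IDR promoter windows. GTCACG and CACGTG can overlap, and each was counted on its own.

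Members carried IDR summits at a higher rate than other genes, but most members had none. The 10 of 70 members make 14.3% (95% Wilson interval 7.95 to 24.3%), against 1387 of 19903 other genes, or 6.97% (6.62 to 7.33%). Over all protein-coding genes the share was 6.99%. The larger pooled list, made from both replicates with a relaxed threshold, is named by the authors as holding peaks and background. A summit on that list alone is therefore not a call of binding. The list held a promoter summit for 41 of 70 members, or 58.6% (46.9 to 69.4%). This compares with 7297 of 19903 other genes, or 36.7% (36 to 37.3%), and 36.7% of all genes. In both comparisons the intervals of members and other genes do not overlap. They cover counting error only and treat genes as independent, although neighbouring genes can share a summit. With each IDR summit given to its nearest gene start alone, 7 members (10%, 4.93 to 19.2%) had one, an interval that includes the 5.06% of other genes. Among genes with a pooled promoter summit the shares lay closer, at 24.4% of the 41 members and 19.0% of other genes. No interval was computed for these 41 members.

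The median strongest IDR signal was 323 at the 10 members and 213 at the 1387 other genes with an IDR summit. On the pooled list the medians were 60.1 at members and 60.2 at other genes with a summit. Signal is the authors' deposited peak value, which is compared here only within a list. The lowest signal on the IDR list was 116.889 and the highest 2033.93. In content that list was the top 2139 peaks of the pooled list by signal, so replicate matches are given separately.

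**Figure D1:**
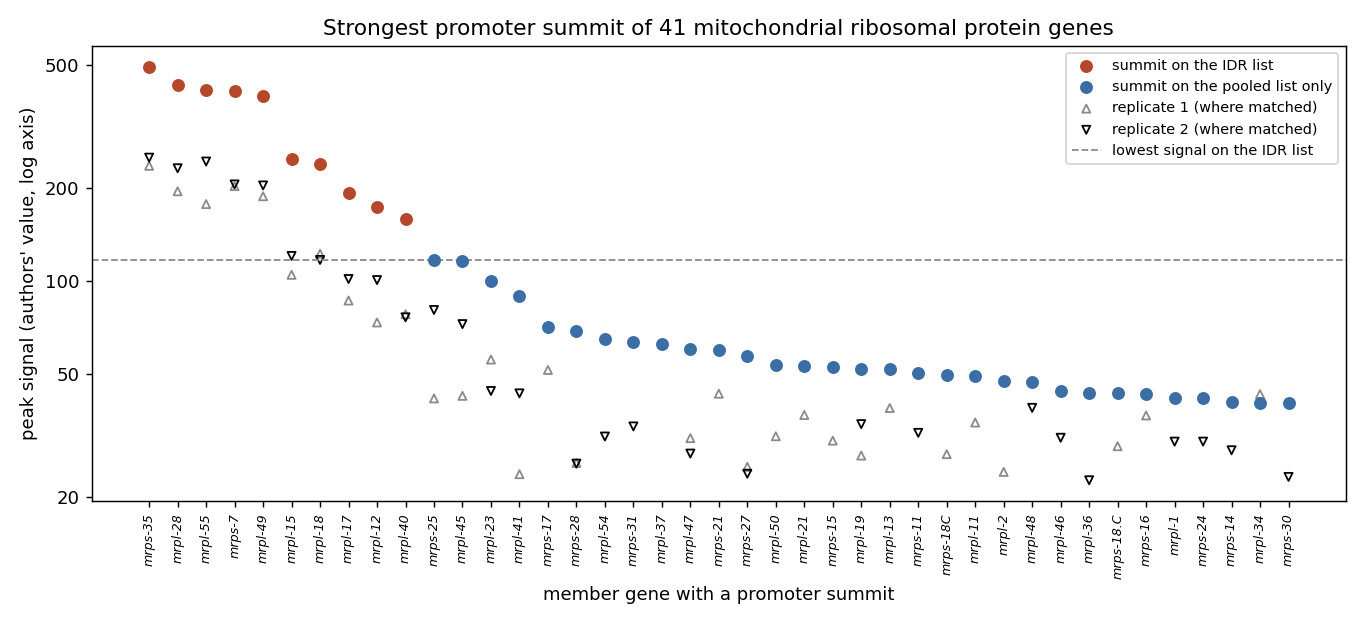
Signal of the strongest promoter summit (log axis) for the 41 members with one on the pooled list, in falling order, with points for the pooled list and for each replicate list where a summit lay within 100 bp. The 10 members on the IDR list lie above 159 and have points in both replicates, while most of those further right have a point in 1 replicate or none.

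The 5 strongest summits lay close to the gene starts of mrps-35, mrpl-28, mrpl-55, mrps-7 and mrpl-49. All 5 stood at the highest −log10 q-value that the IDR list holds, 2.91, which 408 of its peaks share. mrps-35 (WBGene00012697) encodes mS35, a small subunit protein found only in mitochondria. Its summit had a pooled signal of 494 (rank 181 of the pooled list), with 236 in replicate 1 and 251 in replicate 2, and lay 123 bp upstream of the gene start. It also lay inside an exon of sws-1 on the other strand, 296 bp from that gene's start and so outside its promoter window. mrpl-28 (WBGene00020796) encodes bL28m, a large subunit protein with a bacterial relative. Its pooled signal was 431 (rank 246), with 195 in replicate 1 and 232 in replicate 2, at 98 bp upstream, and no other gene shared the window. mrpl-55 (WBGene00022045), annotated as a large subunit protein, had a pooled signal of 416 (rank 268), with 178 in replicate 1 and 244 in replicate 2. Its summit lay 126 bp upstream, again shared with no other gene.

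mrps-7 (WBGene00013324) encodes uS7m, whose bacterial relative organises the head of the small subunit. Its summit had a pooled signal of 412 (rank 275), with 203 in replicate 1 and 206 in replicate 2. It lay 171 bp upstream of mrps-7 and 300 bp upstream of Y57G11C.3, which starts on the other strand. mrpl-49 (WBGene00011247) encodes mL49, found only in mitochondria. Its pooled signal was 397 (rank 299), with 188 in replicate 1 and 204 in replicate 2, at 173 bp upstream. The same summit lay 346 bp upstream of rpl-28, a gene for a protein of the large cytosolic subunit, so these lists do not assign it to either gene. In these 5 the replicates' ranks ran between 161 and 389 of 30000.

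The other 5 IDR summits were weaker, and 4 of them also lay in the window of a neighbour. mrpl-15 (WBGene00022373) encodes uL15m, with a bacterial relative, and had a pooled signal of 249 (rank 613), with 105 in replicate 1 and 121 in replicate 2. Its summit was the most distant of the 10, at 617 bp upstream, and was not shared. mrpl-18 (WBGene00017044) encodes uL18m, whose bacterial relative binds ribosomal RNA. Its pooled signal was 240 (rank 652), with 123 in replicate 1 and 117 in replicate 2, at 248 bp upstream and nearer to C14B9.8 (138 bp). mrpl-17 (WBGene00021829) encodes bL17m, with a bacterial relative, and had a pooled signal of 193 (rank 947), with 86.6 in replicate 1 and 102 in replicate 2. This summit lay 160 bp upstream of mrpl-17 and 262 bp upstream of vbh-1, an RNA helicase gene.

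mrpl-12 (WBGene00012361), named after the bacterial stalk protein that contacts elongation factors, had a pooled signal of 174 (rank 1113), with 73.6 in replicate 1 and 101 in replicate 2. At 533 bp upstream, its summit lay nearer to Y39A1A.21 (206 bp) and Y39A1A.22 (200 bp). mrpl-40 (WBGene00018793) encodes mL40, found only in mitochondria, and had the lowest pooled signal of the 10, at 159 (rank 1293), with 78.2 in replicate 1 and 76.4 in replicate 2. Its summit lay 185 bp upstream of mrpl-40, 7 bp inside F54C4.4 and 990 bp upstream of attf-3. In all, 6 of the 10 summits were shared with 8 neighbouring genes, a share of 60%, against 51.2% of the 1387 other genes (710).

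Summits at the 10 members lay 98 to 617 bp upstream, with a median of 172 bp. At other genes the median was 245 bp upstream, with quartiles of 448.5 and 135 bp upstream. Of the 10, 8 lay within 300 bp upstream, against 779 of 1387 other genes (56.2%). The place was between genes for 8 of the 10, and none lay within 300 bp of a short noncoding RNA gene.

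**Figure D2:**
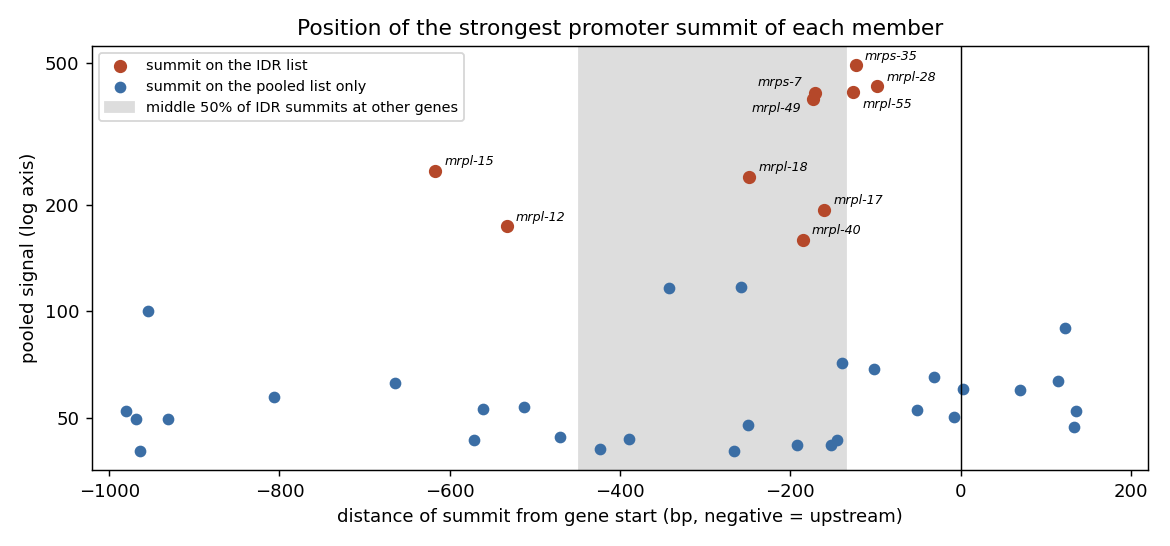
Distance of the strongest promoter summit from the gene start in bp (negative is upstream) against its pooled signal (log axis), 1 point per member, with the middle 50% of IDR summits at other genes shaded. The 10 IDR summits all lie upstream of the start, 8 of them within 300 bp, while pooled-only summits are spread over the whole window.

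All 10 IDR summits of members were found in both replicates. A summit within 100 bp stood among the 2139 highest peaks of each replicate for all 10. The same held for 1455 of all 2139 IDR peaks (68.0%) and for 774 of the 1025 strongest promoter IDR summits of genes (75.5%). Each of the 10 ranked nearer the top in replicate 2 than in replicate 1. Of all promoter summits on the IDR list, 58.2% did so. The difference in rank was small for mrps-7, at rank 304 in replicate 1 and rank 254 in replicate 2. It was wide for mrpl-12, at rank 1644 in replicate 1 and rank 843 in replicate 2.

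**Figure D3:**
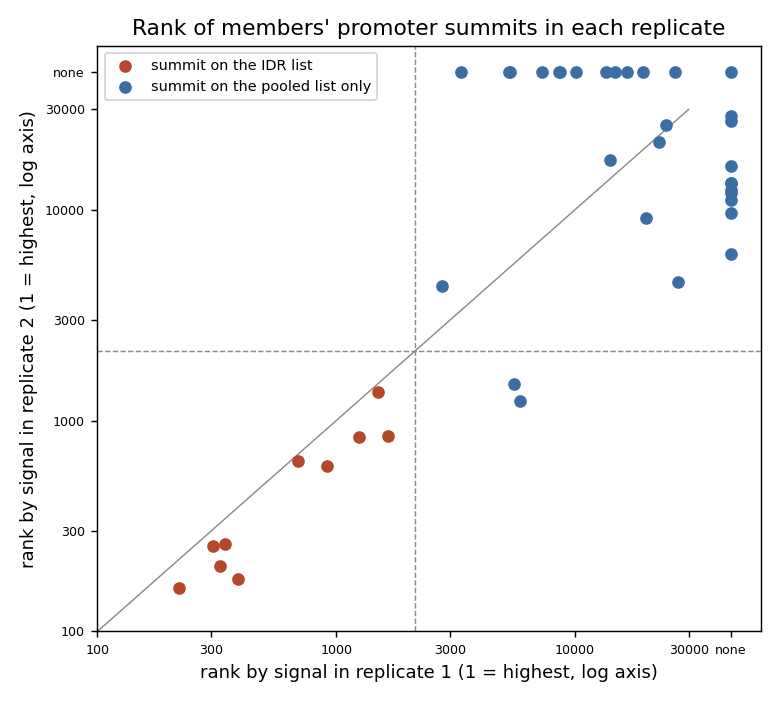
Rank of the matching peak in replicate 1 against its rank in replicate 2 (both log axes, rank 1 is the highest signal) for the 41 members with a pooled promoter summit. Points at none had no match in that replicate, the solid line marks equal ranks and dashed lines mark rank 2139. The 10 IDR members lie inside both dashed lines and below the solid line, while mrps-25 and mrpl-45 are inside the replicate 2 line only.

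Just below the IDR cut stood 2 members. mrps-25, which encodes the mitochondria-only protein mS25, had a pooled signal of 116.887 at rank 2140, the first peak off the IDR list. Its replicates were unequal, with a signal of 41.8 (rank 5898) in replicate 1 and 80.7 (rank 1237) in replicate 2. mrpl-45, for the mitochondria-only mL45, had a pooled signal of 116.6 at rank 2151, with 42.6 (rank 5585) in replicate 1 and 72.7 (rank 1494) in replicate 2. Both would have ranked among the top 2139 peaks in replicate 2 alone, and both summits were shared, with Y55F3AM.13 (321 bp) for mrps-25 and with Y119D3B.12 (195 bp) for mrpl-45.

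The next 8 members on the pooled list had signals between 60.4 and 100.2. mrpl-23, which encodes uL23m, had a pooled signal of 100.2, with 55.8 in replicate 1 and 44.2 in replicate 2. However, its summit lay 954 bp upstream, in an exon of T08B2.14 and of WBGene00023344. It was also within 300 bp of T08B2.13, a short noncoding RNA gene. mrpl-41, for mL41, had a pooled signal of 89.6, with 23.8 in replicate 1 and 43.4 in replicate 2, with the summit 123 bp downstream of its start in its own exon. mrps-17, for uS17m, had a pooled signal of 71.4, with 51.7 in replicate 1 and no match in replicate 2. mrps-28 had a pooled signal of 68.9, with 25.8 in replicate 1 and 25.7 in replicate 2. mrpl-54, mrps-31, mrpl-37 and mrpl-47 had pooled signals of 65.1, 63.6, 62.7 and 60.4. Of these 4, mrpl-47 was matched in both replicates, mrpl-54 and mrps-31 in replicate 2, and mrpl-37 in neither. The neighbours sharing a summit were txdc-9 for mrps-17, Y43F8C.7 for mrps-28 and lin-38 for mrpl-37.

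Most pooled-only summits were weak. They are counted here per member, 31 in all, so the 1 that mrpl-1 and mrps-24 share counts for each of them. The −log10 q-values of the 31 ran from 0.111 (mrps-30) to 1.18 (mrps-25). A match in both full replicate lists was found for 8 of them (25.8%), against 34.1% of the 5910 other genes with such a summit. Another 12 were matched in replicate 1 alone, 10 in replicate 2 alone and 1 in neither. Of the 31, 22 ranked beyond 10000 of the pooled list (71.0%), against 64.4% of the other genes' pooled-only summits. Among the 10000 pooled peaks of highest signal, 19 of 70 members had a summit, or 27.1% (18.1 to 38.5%), against 17.5% of other genes. Among pooled peaks matched in both replicates, 18 members had one, or 25.7% (16.9 to 37%), an interval that includes the 17.3% of other genes.

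The other 29 members had no summit in their promoter window on either list. Of the large subunit these were mrpl-4, mrpl-9, mrpl-10, mrpl-16, mrpl-20, mrpl-22, mrpl-24, mrpl-30, mrpl-32, mrpl-35, mrpl-38, mrpl-39, mrpl-42, mrpl-44, mrpl-51 and mrpl-53. Of the small subunit they were mrps-2, mrps-5, mrps-6, mrps-9, mrps-10, mrps-12, mrps-18A, mrps-18B, mrps-22, mrps-23, mrps-26, mrps-33 and mrps-34. Their nearest pooled summit, outside that window, lay 326 to 6553 bp from the gene start, with a median of 1959 bp.

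Members were split by their place in the row of genes. A close upstream gene here means a same-strand protein-coding gene ending within 500 bp of the member's start or overlapping it. This is a rule of distance and not an annotation of operons. Of 70 members, 30 had one, or 42.9% (31.9 to 54.5%), against 4086 of 19903 other genes, or 20.5% (19.97 to 21.1%). The median distance to the upstream same-strand gene was 862.5 bp for members and 2874 bp for other genes. Of the 30 close gaps, 19 measured 80 to 120 bp (63.3%), against 22.6% of the close gaps of other genes. Gaps of about that length are typical of operons in this nematode.

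None of the 30 members with a close upstream gene had an IDR summit at its own start, a count that allows a share of up to 10%. Of other genes so placed, 205 of 4086 had one, or 5.02%, and of all genes so placed, 4.98%. Of the 40 members with no close upstream gene, 10 had an IDR summit, or 25% (14.2 to 40.2%). Among other genes without one, 1182 of 15817 did, or 7.47% (7.07 to 7.89%), and among all genes without one, 7.52%. On the pooled list the intervals of the 2 classes of members overlapped. A pooled summit was found at 16 of the 30 members with a close upstream gene, or 53.3% (36.1 to 69.8%), against 34.2% of other genes so placed. Without a close upstream gene it was found at 25 of 40 members, or 62.5% (47.0 to 75.8%), against 37.3% of other genes. At the 16 members the pooled signal was 40.3 to 100.2, with a median of 52.2.

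**Figure D4:**
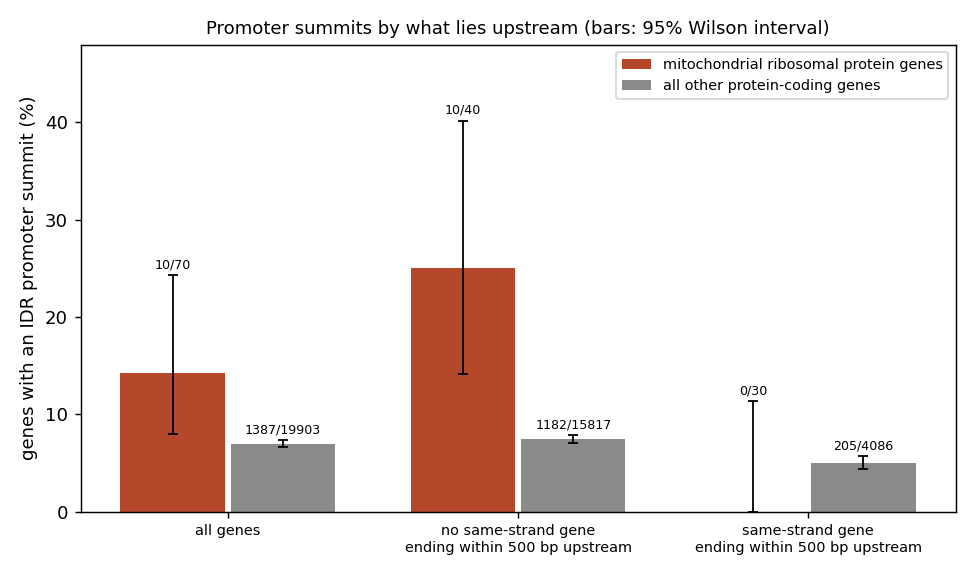
Percent of genes with an IDR promoter summit (bars from 0, error bars are 95% Wilson intervals) for members, left, and other genes, right, over all genes and by whether a same-strand gene ends within 500 bp upstream. Members with no close upstream gene reach 25%, against 7.47% of other genes, while members with one stand at 0, against 5.02%.

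For a member with a close upstream gene, the row was followed upstream to its first gene. That first gene had an IDR summit for 11 of the 30 members, or 36.7% (21.9 to 54.5%), against 584 of 4086 other genes, or 14.3% (13.3 to 15.4%), and 14.5% of all genes so placed. The 30 members had 29 different first genes. The signals at these 11 starts were 181 to 851, with a median of 292, and their summits lay 1041 to 9023 bp before the member's start, with a median of 3526 bp. This comparison was added after the data were seen.

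The strongest of the 11 was at F29B9.11, the gene before mrps-21, with a signal of 851 at 1041 bp before the member. tag-124, first of the 5 genes counted up to and including mrpl-53, had a signal of 540, and clsp-1, the claspin gene before mrpl-54, had 475. rpn-3, a proteasome subunit gene before mrpl-32, had a signal of 438. nrde-2, a nuclear RNA interference gene before mrps-14, had 344, and eif-3.E, a translation initiation factor gene at the head of the row with mrps-30, had 292. W04D2.4 before mrps-11 had 212 and misc-1, a mitochondrial carrier gene before mrpl-41, had 211. atp-2, the ATP synthase beta subunit gene heading the row with mrps-26, had 210, and num-1 before mrps-12 had 206. T14B4.3 before mrps-18.C had the lowest signal, 181. These first genes thus had several kinds of product.

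**Figure D5:**
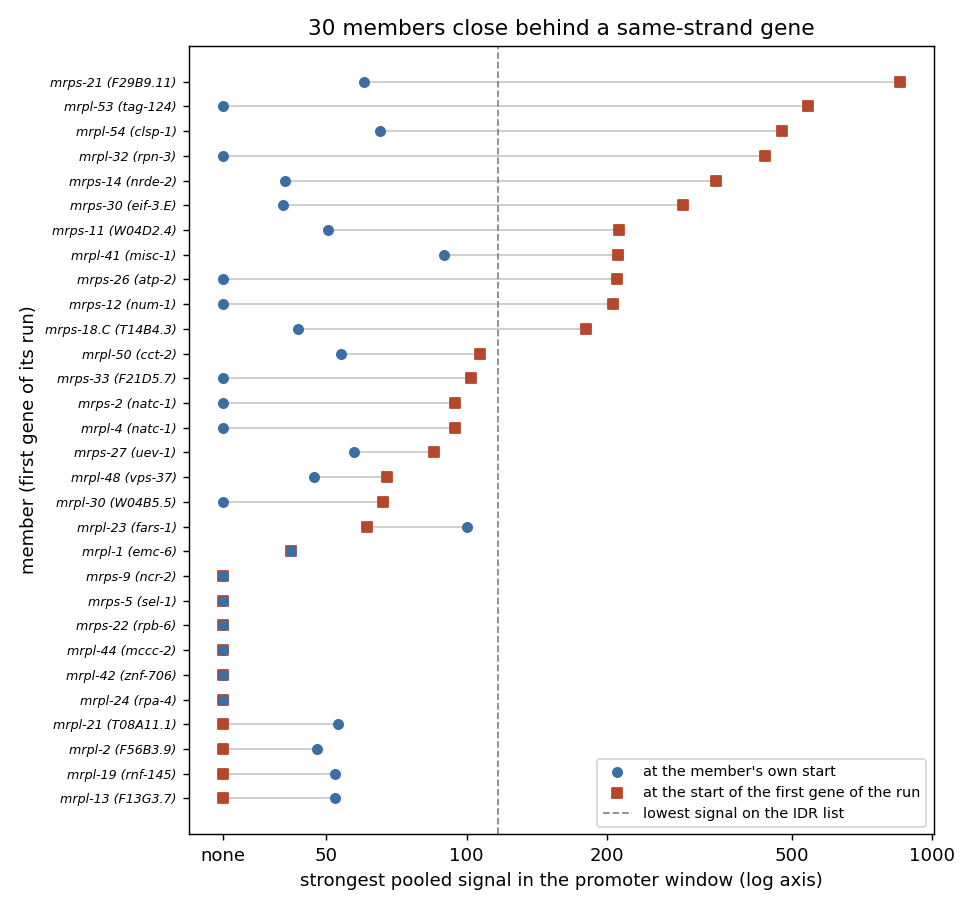
Strongest pooled signal (log axis) in the promoter window of the first gene of each row (squares) and of the member itself (circles), for the 30 members with a close upstream gene, 1 line per member with the first gene in brackets. The squares of 11 rows lie beyond the dashed line, the lowest signal on the IDR list, and no circle does.

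Other rows had weak summits or none at their first gene. mrps-5, a member widely used in studies of lifespan, lay 103 bp behind sel-1, and neither gene had a promoter summit on either list. mrps-2 and mrpl-4 lay in 1 row headed by natc-1, which had a pooled signal of 94.6 and was not on the IDR list. mrps-22 lay behind dap-3, a small subunit gene with another style of name, in a row headed by rpb-6, which had no promoter summit. mrpl-1 overlapped emc-6, and both shared with mrps-24 a pooled summit of signal 42.0. Of the 10 members with an IDR summit, 3 were themselves followed by a close gene on the same strand. These were mrpl-17 before Y54E10A.6 (102 bp), mrps-7 before vti-1 (107 bp) and mrpl-49 before R11D1.10 (102 bp).

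A divergent neighbour, a gene starting on the other strand within 1000 bp upstream, was found for 26 of 70 members, or 37.1%, against 17.7% of other genes. Of the members with one, 6 had an IDR summit, or 23.1% (11.03 to 42.1%), against 16.9% of other genes so placed. Of the 44 members without one, 4 had an IDR summit, or 9.09% (3.59 to 21.2%), against 4.84% of other genes. The intervals of members in both classes include the value of other genes. Among members with no close upstream gene, 6 of 25 with a divergent neighbour had an IDR summit, or 24% (11.5 to 43.4%), and 4 of 15 without one, or 26.7% (10.9 to 51.95%). Other genes of the same 2 classes stood at 16.8% and 4.87%. The 4 of 15 include mrps-35, although sws-1 starts on the other strand 173 bp downstream of the mrps-35 start. The rule counts upstream starts only, for members and other genes alike, so such overlapping pairs fall in the class without a divergent neighbour.

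By subunit, 8 of 41 large subunit members had an IDR summit, or 19.5% (10.2 to 34.0%), and 2 of 29 small subunit members, or 6.90% (1.91 to 21.96%). The intervals overlap, and the share of small subunit members was close to the 6.97% of other genes. A pooled summit was present for 25 of 41 large and 16 of 29 small subunit members. RefSeq product names class 30 members as shared with bacteria and 19 as mitochondria-only, and leave 21 unclassed. The class rests on a symbol in the product name alone, so unclassed members such as mrpl-12 can still have bacterial relatives. An IDR summit was found at 5 of the 30 shared with bacteria, or 16.7% (7.34 to 33.6%), where other genes stood at 6.97%. It was found at 3 of the 19 mitochondria-only members, or 15.8% (5.52 to 37.6%), and at 2 of the 21 unclassed, or 9.52% (2.65 to 28.9%). The last 2 intervals include the value of other genes, and the intervals of the 3 classes overlap. Names and products differ for some members, so that mrps-18C is annotated as the large subunit protein uL3m.

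By chromosome, IDR summits were found at 2 of 15 members on I, against 8.94% of other genes there, and at 1 of 12 on II, against 6.55%. They were found at 3 of 22 members on III, against 10.7% of other genes, at 2 of 11 on IV, against 6.30%, and at 2 of 10 on V, against 5.86%. On each of these 5 chromosomes the 95% Wilson interval of the members includes the value of other genes. No member lies on X, where 4.72% of other genes had an IDR summit.

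Related gene lists were counted by the same rule. Of 81 cytosolic ribosomal protein genes, 49 had an IDR summit, or 60.5% (49.6 to 70.4%), an interval wholly above that of the members. The strongest were rpl-3 (1676), rpl-20 (1450) and rpl-15 (1222). A close upstream gene lay before 42.9% of members, against 9 of these 81 genes (11.1%). Where there was none, 25% of members had an IDR summit, against 48 of 72 cytosolic genes (66.7%). Of 40 oxidative phosphorylation genes, 12 had one, or 30% (18.1 to 45.4%), with cox-5A (1052), atp-1 (615) and cox-5B (521) the strongest. Of 26 other genes of mitochondrial translation and gene expression, 6 did, or 23.1% (11.03 to 42.1%), led by ears-2 (429), gfm-1 (359) and mtx-1 (317). The last encodes metaxin, a protein of the outer membrane known for import, and was counted on this list as written. Of 24 mitochondrial stress and import genes, 5 did, or 20.8% (9.24 to 40.5%), led by hsp-60 (988), tomm-20 (586) and ddp-1 (476). Of these 12 named genes, 8 shared the summit with a neighbour, among them rpl-20 with Y17G9B.5, atp-1 with mcrs-1, gfm-1 with rict-1 and hsp-60 with Y22D7AL.10. The intervals of these 3 mitochondrial lists overlap that of the members.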

How the data were processed

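The authors deposited peak lists in the narrowPeak layout on ce11, per the file names and notes: 1 IDR list of 2139 peaks, 1 pooled list and 1 list per replicate of 30000 peaks each. The values used were the authors' deposited peak signal and their deposited −log10 q-value. By position, the IDR peaks were the 2139 pooled peaks of highest signal. The sources used here do not give the aligner, peak caller or IDR threshold, and the labels name a control only as possible. No list holds read counts, so depth is unknown.

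Each peak stood for its summit. Genes came from Ensembl release 115, and bases and product names from RefSeq. A replicate match was a summit within 100 bp. Python 3.11.15, pandas 2.3.3, numpy 2.4.6, scipy 1.17.1 and matplotlib 3.10.9 were used. Counting was tested on simulated data with 200 planted summits. Intervals (Wilson) and upper limits for a count of 0 (taken as 3 counts) cover counting error alone, and no p-value was computed. Members and lists were chosen with earlier results of these data known. Named are all members with an IDR summit, the next 10 by pooled signal, those with none, mrps-5, neighbours sharing a named member summit, and the 3 strongest genes of each other list. Neighbours of other lists' genes, the first genes of the rows, the genes following members and the members holding GTCACG were named after their values were seen. Of the names on the other lists, 8 of mitochondrial translation and 1 of stress and import were not found.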

Additional observations from a re-analysis of the deposited data

How the results depend on the processing

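The count of 10 members with an IDR summit ran from 7 to 14 under the alternatives to window, peaks and assignment. It was lowest with each summit given to its nearest start (7, losing mrpl-18, mrpl-12 and mrpl-40) and highest with 2000 bp upstream (14), where other genes stood at 5.06% and 9.16%. The 4 members gained with 2000 bp were mrpl-1, mrps-18.C, mrps-21 and mrps-28. For mrps-21 and mrps-18.C, that window takes in the IDR summit of the first gene of the row, at 1041 and 1341 bp. With 500 bp upstream, mrpl-15 and mrpl-12 were lost (8, other genes 5.47%). With the IDR peaks above the median signal, mrpl-12 and mrpl-40 were lost (8, other genes 4.43%). Leaving out replicate 1 gave 12, with mrps-25 and mrpl-45 gained (other genes 7.07%), and leaving out replicate 2 gave 10 (6.68%). Counting the start of the first gene of the row as well, an alternative added after seeing the data, gave 21 members, against 8.87% of other genes. Also added were limits of 250 and 1000 bp for a close upstream gene, which left 10 of 46 members, against 7.36% of other genes, and 9 of 33, against 7.80%. Among genes with a pooled summit, 24.4% of members and 19.0% of other genes had an IDR summit. The count of 41 members with a pooled summit was 19 with the 10000 highest pooled peaks (other genes 17.5%), 18 with peaks matched in both replicates (17.3%), and 25 of the 40 members with no close upstream gene (37.3%). It was 30 with 500 bp upstream (26.2%), 48 with 2000 bp (52.9%), 36 with no bases downstream (31.6%) and 31 with nearest starts (30.7%). Leaving out replicate 1 gave 36 (37.5%) and leaving out replicate 2 gave 37 (36.6%), and each kept only 30 of the 41. Shared windows numbered 10 of 14 with 2000 bp upstream. All 10 IDR summits stayed matched in both replicates at 50 and 200 bp. No paired analysis was possible because there was 1 group. The unknown depth and 2 replicates limit what weak summits can show.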
